A study of Saccharomyces cerevisiae with 6 samples.

Results

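The 35 genes described here are the measured core of yeast autophagy together with the vacuolar enzymes that digest what autophagy delivers and the TOR kinases that restrain it. They were chosen by name: every probe whose platform symbol, brought up to date, is ATG followed by digits, plus PEP4, PRB1, PRC1, LAP4, AMS1, CPS1, TOR1, TOR2, KOG1, NPR2 and NPR3. They are 35 of 6226 features on the array and 35 of 4060 named genes, with 1 probe each, and 24 of them are ATG genes. Of 48 genes of the R64 reference gene table that meet this rule, 13 had no probe with a name here and were not analysed (ATG23, ATG27, ATG29, ATG31, ATG33, ATG34, ATG36, ATG38, ATG39, ATG40, ATG42, ATG44 and ATG45). The platform lists many of them under older symbols, such as APG17 for ATG17 and ICY2 for ATG41. LAP4 is kept under that name and is APE1 in the R64 table.

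The data are 6 arrays of budding yeast, Saccharomyces cerevisiae, with 3 biological replicates for each of a flor and a wine strain. Flor yeasts form a floating film on wine after fermentation, which the labels say does not happen under shaking. The flor group is P3_Kan, a haploid of mating type alpha derived from P3-D5 that carries a KanMx cassette. The wine group is K1_Kan, for which the labels name the haploid K1-280-2B of mating type a and do not explain the Kan in its title. Both strains were shaken at 28 °C in synthetic wine-like medium until harvest at an optical density (600 nm) of 1. Each group is 1 strain, so strain and mating type differ together and cannot be told apart.

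In autophagy a double membrane closes around cytoplasm or a chosen cargo, fuses with the vacuole, and its contents are degraded there. The Atg1 kinase complex starts the process when TOR complex 1, active in well-fed cells, no longer inhibits it. Membrane then comes from Atg9 vesicles, and a pair of ubiquitin-like systems attach Atg8 to the growing membrane. In growing budding yeast the same machinery also runs the cytoplasm-to-vacuole targeting (Cvt) route, which carries the precursors of aminopeptidase I (LAP4) and alpha-mannosidase (AMS1) to the vacuole. Transcript levels do not measure the activity of this process, much of which is controlled on the proteins.

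The deposited log2 intensities lay between 5.29 and 15.88, with array medians of 8.33 to 8.35. Correlations between arrays were 0.9971 to 0.9975 within wine. Within flor they were 0.9877 and 0.9903 for replicate 1 against replicates 2 and 3, and 0.9971 between those. Flor replicate 1 therefore stood apart. Values without it are given where leaving it out changed a call or moved a called value by over 1.5 times, and for some of the other genes. The mating type markers followed the labels: all 7 a-specific genes were lower in flor (log2 changes −4.79 to −1.20) and all 4 alpha-specific genes were higher (3.44 to 7.17). Of 7 diploid and meiotic markers, 2 (NDT80 and REC8) were higher and 0 lower at a limma adjusted p under 0.05. Over all features 20.5% were higher and 23.6% lower, so this count is no result about these markers. With 3 arrays a strain, their number sets the precision. In extracts of whole cultures, a change per cell and a change in the share of cells that express a gene cannot be told apart.

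The module did not move as one. Of the 35 genes, 7 were higher in flor (ATG17, ATG11, ATG14, ATG3, ATG12, CPS1 and AMS1) and 5 were lower (ATG41, ATG9, PEP4, LAP4 and NPR3) at an adjusted p under 0.05. Across all 6226 features the same test called 44.1%, with 20.5% higher and 23.6% lower in flor. The members' 12 calls, 34.3% of 35, are a smaller share than that background, so the count is not a result about the module, and the description rests on single genes. The members' median log2 change (flor minus wine) was 0.03 beside −0.02 over all features. The largest changes belonged to LAP4 and ATG41, the only 2 members past a log2 change of 1 in size, where 6.41% of all features were. The strains' values did not overlap in 16 members, where this held for 56.1% of all features.

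**Figure D1:**
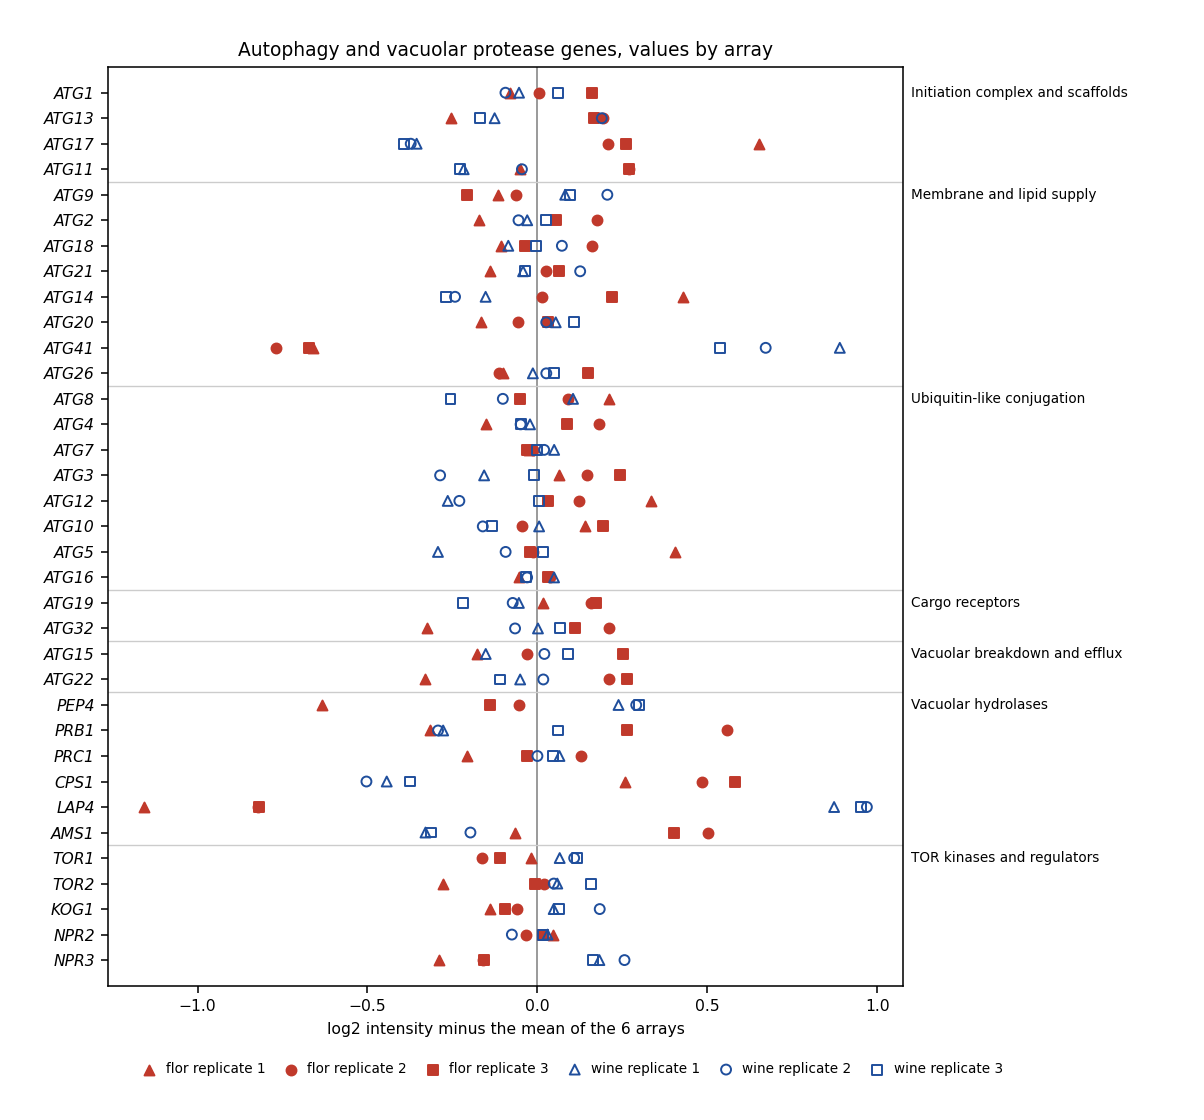
Each row is a gene, ordered by role, and each point is 1 array, placed by its log2 intensity minus the mean of that gene's 6 arrays. Filled red symbols are flor and open blue symbols wine, and the symbol's shape gives the replicate number. LAP4 and ATG41 have all 3 flor arrays far to the left, CPS1 and ATG17 have them to the right, and flor replicate 1 is the lowest flor array for all 6 vacuolar hydrolases.

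The vacuolar hydrolases went furthest, in both directions. LAP4 (YKL103C), which encodes the aminopeptidase that is the main Cvt cargo, was at log2 intensities of 10.23, 10.57 and 10.57 in flor replicates 1 to 3 and 12.26, 12.36 and 12.34 in wine replicates 1 to 3. Every flor array lay well below every wine array. This is 3.64-fold lower in flor (95% interval 3.09 to 4.29, adjusted p = 2.09e-06), with log2 changes of −1.79 on slide 1 and −1.90 on slide 2. AMS1 (YGL156W), the vacuolar alpha-mannosidase that reaches the vacuole on the same Cvt route, was at 11.83, 12.40 and 12.30 in flor and 11.57, 11.70 and 11.58 in wine. All flor arrays were above all wine arrays, and replicate 1 was the closest of the flor arrays to wine. AMS1 was 1.47-fold higher in flor (1.18 to 1.84, adjusted p = 0.011). These 2 Cvt cargo genes thus changed in opposite directions, LAP4 by a log2 change of −1.86 and AMS1 by 0.56.

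CPS1 (YJL172W), carboxypeptidase S, which releases amino acids from peptides in the vacuole, was at 9.50, 9.72 and 9.82 in flor and 8.80, 8.74 and 8.86 in wine. The strains were separated on every array, and CPS1 was 1.84-fold higher in flor (1.58 to 2.15, adjusted p = 0.000144). PEP4 (YPL154C), proteinase A, which sits at the head of the cascade that activates other vacuolar enzyme precursors, was at 11.80, 12.38 and 12.30 in flor and 12.68, 12.73 and 12.74 in wine. All flor arrays were below all wine arrays, with replicate 1 furthest. PEP4 was 1.47-fold lower (1.17 to 1.83, adjusted p = 0.012), with log2 changes of −0.43 on slide 1 and −0.61 on slide 2. Without flor replicate 1 the log2 change of PEP4 was −0.37 and still passed (adjusted p = 0.00115).

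PRB1, proteinase B, a serine protease of the subtilisin family that Pep4 activates, spread widely in flor: 9.70, 10.57 and 10.28 against 9.73, 9.72 and 10.07 in wine. Flor replicate 1 lay below all 3 wine arrays and the other flor arrays above them, so the groups overlapped. The log2 change of PRB1 was 0.34 (95% interval −0.12 to 0.80, adjusted p = 0.21), and 0.58 without flor replicate 1 (adjusted p = 0.00145). PRC1, carboxypeptidase Y, was at means of 12.78 ± 0.17 in flor and 12.86 ± 0.03 in wine (SD, n = 3 per strain) and did not pass (log2 change −0.07, −0.29 to 0.15, adjusted p = 0.57).

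Flor replicate 1 was the lowest flor array for 6 of 6 hydrolases and for 23 of 35 members, whereas it was the lowest for 42.1% and the highest for 43.1% of all features. It was the highest flor array for 8 members, among them ATG17, ATG14, ATG12, ATG8 and ATG5. The part of this array's deviation in the results was not tested beyond leaving it out, which ended none of the 12 calls and added ATG19, ATG22, PRB1 and TOR1. Among members that passed neither way, leaving it out moved the log2 change of ATG8 from 0.17 to 0.10 and of TOR2 from −0.18 to −0.08. It moved ATG13 from 0.07 to 0.21 and ATG32 from −0.00 to 0.16.

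Of 4 genes that start autophagy, 2 scaffold genes were higher in flor, 0 were lower and 2, among them the kinase gene, did not pass. Beside the 20.5% higher and 23.6% lower over all features, these counts are no result about the group. ATG17 (YLR423C), the scaffold on which the starvation-induced complex assembles, was at 10.09, 9.64 and 9.69 in flor and 9.08, 9.06 and 9.04 in wine. The strains were apart on every array, with flor replicate 1 highest, and ATG17 was 1.68-fold higher in flor (1.40 to 2.02, adjusted p = 0.00104). Without flor replicate 1 its log2 change was 0.61 (adjusted p = 2.2e-05). ATG11 (YPR049C), the scaffold of selective autophagy and the Cvt route, was at 9.07, 9.39 and 9.39 in flor and 8.91, 9.08 and 8.89 in wine. Flor replicate 1 lay at the level of wine replicate 2, so the groups overlapped slightly. ATG11 was 1.25-fold higher (1.06 to 1.49, adjusted p = 0.0365), and it failed when flor replicate 2 or 3 or wine replicate 1 or 3 was left out (adjusted p = 0.0986 to 0.124).

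ATG1 (YGL180W), the protein kinase itself, was at 6.75, 6.83 and 6.99 in flor and 6.77, 6.73 and 6.89 in wine. The groups were interleaved, and the log2 change was 0.06 with a 95% interval of −0.15 to 0.26 (adjusted p = 0.64). ATG13, its regulatory partner and a direct target of TOR complex 1, had a log2 change of 0.07 (−0.25 to 0.39, adjusted p = 0.73).

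**Figure D2:**
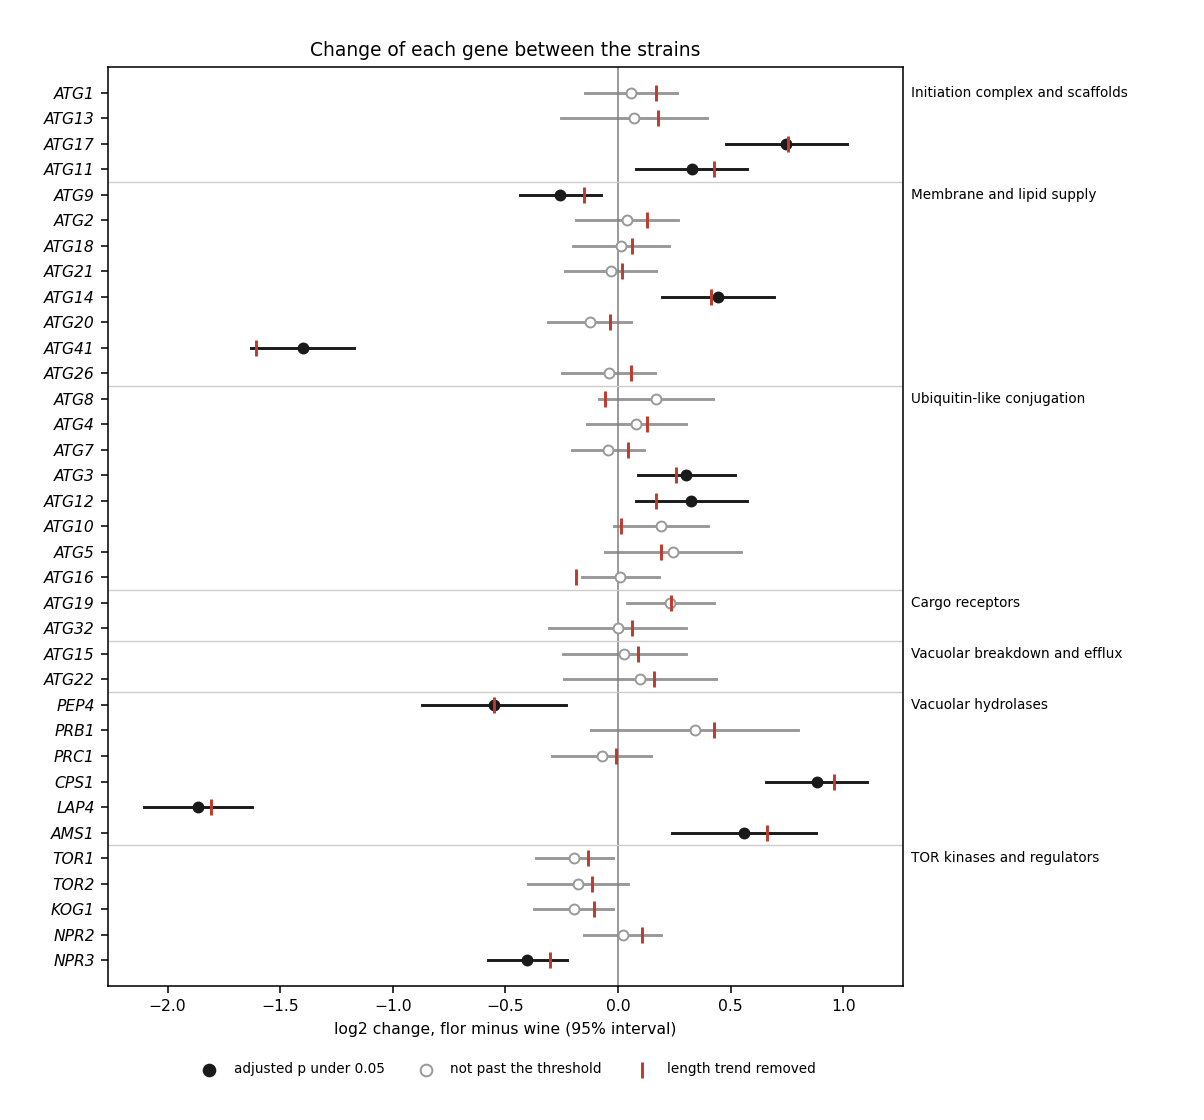
Points are log2 changes (flor minus wine) of the 35 genes with 95% intervals from limma. Black points passed at an adjusted p under 0.05, open grey points did not, and red ticks are the changes after a trend with coding length was removed. LAP4 at −1.86 and ATG41 at −1.40 lie far to the left of the rest, and the changes of members that did not pass lie between −0.20 and 0.34.

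Of 8 genes of membrane and lipid supply, 1 was higher, 2 were lower and 5 did not pass. Beside the 20.5% higher and 23.6% lower over all features, these counts are no result about the group. ATG41 (YPL250C, formerly ICY2), whose product binds Atg9 and supports autophagosome formation, was at 8.16, 8.05 and 8.15 in flor and 9.71, 9.49 and 9.35 in wine. All flor arrays lay more than a log2 unit below all wine arrays, and ATG41 was 2.64-fold lower in flor (2.25 to 3.10, adjusted p = 9.75e-06). Its log2 changes were −1.34 on slide 1 and −1.43 on slide 2. ATG9 (YDL149W), the transmembrane protein of the vesicles that seed the membrane, was at 8.18, 8.23 and 8.09 in flor and 8.38, 8.50 and 8.39 in wine. The strains did not overlap, but the difference was small, 1.19-fold lower (1.05 to 1.35, adjusted p = 0.029). It failed when flor replicate 3 or any 1 wine array was left out (adjusted p = 0.0639 to 0.111) and once a trend with coding length, described further on, was removed (0.163).

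ATG14 (YBR128C), the subunit that directs phosphatidylinositol 3-kinase to autophagy, was at 7.29, 6.87 and 7.08 in flor and 6.71, 6.62 and 6.59 in wine. All flor arrays were above all wine arrays, and ATG14 was 1.36-fold higher in flor (1.14 to 1.61, adjusted p = 0.011). The other members of this group had log2 changes between −0.13 and 0.04 that did not pass. They were ATG2, a lipid transfer protein (0.04), ATG18, its lipid-binding partner (0.01), ATG21, a relative of Atg18 (−0.03), ATG20, a sorting nexin (−0.13), and ATG26, a sterol glucosyltransferase not needed for autophagy in this species (−0.04).

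In the conjugation systems 2 of 8 genes were higher in flor, 0 were lower and 6 did not pass. Over all features 20.5% were higher and 23.6% lower, so these counts are no result about the conjugation systems. ATG3 (YNR007C), the enzyme that hands Atg8 to its lipid, was at 9.18, 9.26 and 9.36 in flor and 8.96, 8.83 and 9.10 in wine. ATG12 (YBR217W), the other ubiquitin-like protein, was at 7.47, 7.26 and 7.17 in flor and 6.87, 6.91 and 7.14 in wine. Neither gene overlapped between the strains, though the nearest arrays of each were close. ATG3 was 1.23-fold higher (1.06 to 1.43, adjusted p = 0.030) and ATG12 1.25-fold higher (1.06 to 1.49, adjusted p = 0.0375). ATG3 failed when flor replicate 2 or 3 or wine replicate 1 or 2 was left out (adjusted p = 0.056 to 0.118), and ATG12 when flor replicate 2 or wine replicate 1 or 2 was (0.0552 to 0.135). Both also failed once the length trend was removed (adjusted p = 0.0521 for ATG3 and 0.185 for ATG12).

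ATG8 (YBL078C), the ubiquitin-like protein that marks the autophagosome, was at 10.86, 10.74 and 10.60 in flor and 10.76, 10.55 and 10.39 in wine. The strains overlapped, and the log2 change was 0.17 (95% interval −0.09 to 0.42, adjusted p = 0.26). With the length trend removed the ATG8 value was −0.06 (adjusted p = 0.65), so it has no settled direction. ATG4, the protease that trims and releases Atg8, had a log2 change of 0.08, and ATG7, the activating enzyme of both systems, −0.05. ATG10 and ATG5, which form the Atg12 conjugate, had log2 changes of 0.19 and 0.25 that did not pass (adjusted p = 0.12 and 0.17). ATG10 passed narrowly without flor replicate 2 (log2 change 0.26, adjusted p = 0.0498), and with the length trend removed its log2 change was 0.01 (adjusted p = 0.922). The flor value of ATG5 rests on replicate 1, at 9.57 against 9.15 and 9.14 in the others, and without that array its log2 change was 0.11 (adjusted p = 0.363). ATG16, which binds that conjugate, was among the dimmest features (5.64 ± 0.05 in flor and 5.63 ± 0.05 in wine, SD, n = 3), and its log2 change of 0.01 is read with that limit.

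Neither cargo receptor and neither gene of the last vacuolar steps passed. ATG19, the receptor that carries Lap4 and Ams1 on the Cvt route, came closest, at 10.86, 11.00 and 11.01 in flor and 10.79, 10.77 and 10.62 in wine. All flor arrays were above all wine arrays, and the log2 change of ATG19 was 0.23 (0.04 to 0.42, adjusted p = 0.054). It passed without flor replicate 1 (0.28, adjusted p = 0.0101), under quantile normalization (adjusted p = 0.044) and with the length trend removed (0.038). ATG32, the mitophagy receptor, had a log2 change of −0.00 (−0.31 to 0.30). ATG15, the lipase that opens the delivered vesicles inside the vacuole, had a log2 change of 0.03, and ATG22, an exporter of the released amino acids, 0.10. Without flor replicate 1, ATG22 was higher by 0.29 (adjusted p = 0.00723).

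The 5 TOR kinases and regulators had log2 changes between −0.40 and 0.02, and only NPR3 passed, as lower in flor. Over all features 23.6% were lower, so this count is no result about the group. NPR3 (YHL023C), which with Npr2 and Iml1 restrains TOR complex 1 when amino acids are scarce, was at 6.82, 6.95 and 6.95 in flor and 7.29, 7.37 and 7.27 in wine. The strains were apart on every array, and NPR3 was 1.32-fold lower in flor (1.17 to 1.49, adjusted p = 0.0032). Its log2 change was −0.41 on slide 1 and −0.40 on slide 2, and −0.30 with the length trend removed (adjusted p = 0.0062). NPR2, its partner, had a log2 change of 0.02 (−0.15 to 0.19, adjusted p = 0.86).

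TOR1 (YJR066W), the kinase found only in TOR complex 1, was at 8.37, 8.23 and 8.28 in flor and 8.45, 8.50 and 8.50 in wine. All flor arrays were below all wine arrays by a small margin. The log2 change of TOR1 was −0.19 (−0.37 to −0.02, adjusted p = 0.067), or −0.23 without flor replicate 1 (adjusted p = 0.017). KOG1, the subunit of TOR complex 1 that recruits its substrates, and TOR2, the kinase shared by both TOR complexes, had log2 changes of −0.20 and −0.18 with no overlap between strains, and neither passed (adjusted p = 0.067 and 0.18). All 3 have coding lengths over 2000 bases. With the length trend removed the log2 changes were −0.13 for TOR1, −0.11 for KOG1 and −0.12 for TOR2.

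Coding length moved with the strain difference over the whole array. Across 4052 named genes with a length, the log2 change had a Spearman correlation of −0.23 with coding length, and across the 35 members of −0.25, a description of genes that share the same 6 arrays. The 7 members of up to 1000 bases had a median log2 change of 0.19, beside 0.04 for 1355 named genes of that length. The 17 members over 1000 and up to 2000 bases had a median of 0.02 beside −0.07 for 1659 named genes. The 11 members over 2000 bases had a median of −0.04, beside −0.15 for 1038 named genes. The 4 largest changes kept their direction and their calls with this trend removed, when LAP4 was at −1.81, CPS1 at 0.96, ATG17 at 0.75 and ATG41 at −1.61. The part of length in the small changes was not tested further.

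**Figure D3:**
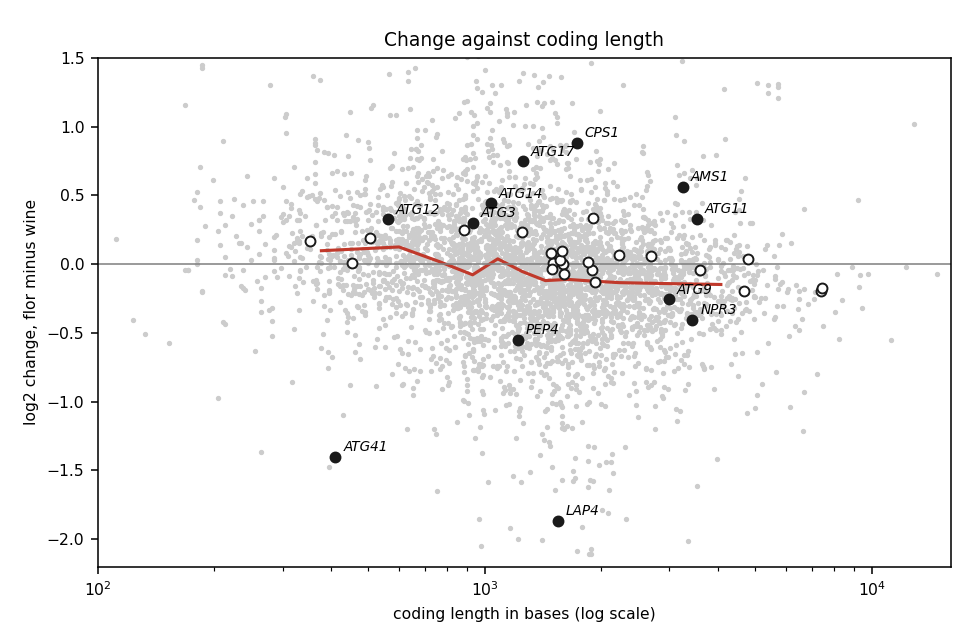
The horizontal axis is coding length in bases on a log scale and the vertical axis the log2 change, flor minus wine. Grey points are named genes (97 of 4052 lie beyond the vertical axis), the red line joins medians over 12 bins of length, filled black points are members that passed and open ones members that did not. The line lies above 0 among the shortest genes and below 0 among the longest, with an uneven course between, and LAP4, ATG41, CPS1 and ATG17 lie far from it.

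The 2 slides held different arrays, flor replicate 3 and wine replicate 2 on slide 1 and the other 4 on slide 2. All 12 calls held with slide as a block. On slide 2 alone, with 2 arrays per strain, only LAP4, ATG41, CPS1 and ATG17 still passed. ATG11, ATG9, ATG14, ATG3, ATG12, PEP4, AMS1 and NPR3 did not (adjusted p = 0.053 to 0.29), with the same sign of change on both slides for each of the 12.

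Other genes of the pathway were taken from lists of genes that are no members. The share of a list that passed ran from 0 to 62.5%, around the 44.1% of all features, so the counts below are no result about these lists. None passed a log2 change of 1 in size, where 6.41% of all features did. Of the list genes named below as higher or lower, VPS38, TLG2, SNX4, GTR2, TAP42, SGA1, PAI3, UTH1 and DNM1 failed on slide 2 alone (adjusted p = 0.0509 to 0.242). Of 4 phosphatidylinositol 3-kinase subunits, 2 were higher and 0 lower (median log2 change 0.17). VPS30, the yeast Beclin and a direct partner of Atg14, was 1.43-fold higher in flor (1.26 to 1.61, adjusted p = 0.00081). VPS38, which takes the place of Atg14 in vacuolar sorting, had a log2 change of 0.41 (adjusted p = 0.0298) and failed when flor replicate 3 or wine replicate 1 or 2 was left out (adjusted p = 0.0700 to 0.112). The catalytic subunit VPS34 (−0.07) and its kinase-like partner VPS15 (−0.12) did not pass.

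Of 12 measured genes of membrane source, tethering and vacuole fusion, 2 were higher and 3 lower (median 0.03). VAC8, the vacuolar surface protein that anchors the Atg1 complex, was 1.48-fold lower in flor (1.29 to 1.71, adjusted p = 0.0011). The SNARE gene TLG2 was lower by a log2 change of −0.34 (adjusted p = 0.018), and SNX4, the sorting nexin that pairs with Atg20, was higher by 0.32 (adjusted p = 0.015). TLG2 failed when flor replicate 2 or 3 or wine replicate 1 or 2 was left out (adjusted p = 0.0520 to 0.0782), and SNX4 when wine replicate 2 was (0.0634).

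Around TOR complex 1, 2 of 5 measured EGO and SEA complex genes were higher and 0 lower (median 0.13), and of 4 other TOR complex subunits 0 were higher and 0 lower (median −0.05). GTR1, a Rag-type GTPase that signals amino acids to TOR complex 1, was 1.63-fold higher in flor (1.44 to 1.85, adjusted p = 0.00014). Its partner GTR2 was higher by a log2 change of 0.28 (adjusted p = 0.040) but failed when flor replicate 2 or wine replicate 2 or 3 was left out (adjusted p = 0.0815 to 0.151). IML1, the third subunit of the complex of Npr2 and Npr3, had a log2 change of 0.13 (adjusted p = 0.32). With the length trend removed it passed narrowly (log2 change 0.22, adjusted p = 0.0465).

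Of 13 measured TOR effectors, 1 was higher and 3 lower (median −0.04). YPK2, a kinase downstream of TOR complex 2, was 1.70-fold lower (1.38 to 2.10, adjusted p = 0.0018) and SIT4, a protein phosphatase, 1.46-fold lower (1.23 to 1.73, adjusted p = 0.0036). TAP42, the regulator that binds this phosphatase under TOR control, was 1.30-fold higher (adjusted p = 0.0053). SCH9, a kinase phosphorylated directly by TOR complex 1, had a log2 change of −0.00 (adjusted p = 0.98).

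Of 11 regulators of ATG gene transcription, 2 were higher and 4 lower (median −0.13). GIS1, a transcription factor of the entry into stationary phase, was 1.70-fold lower in flor (1.49 to 1.95, adjusted p = 0.00014). SNF1, the yeast AMP-activated kinase, was 1.66-fold lower (1.29 to 2.13, adjusted p = 0.0057), and the stress factor gene MSN2 was 1.43-fold lower (adjusted p = 0.0062). UME6, the DNA-binding repressor of ATG8, had a log2 change of −0.01 (adjusted p = 0.93).

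Of 8 other vacuolar hydrolases, 1 was higher and 3 lower (median −0.15). APE3, aminopeptidase Y, was 1.62-fold lower (1.34 to 1.96, adjusted p = 0.0018), and RNY1, a vacuolar ribonuclease, was 1.38-fold higher (1.24 to 1.54, adjusted p = 0.00081). The glucoamylase gene SGA1 was lower by a log2 change of −0.46 (adjusted p = 0.038) but failed when flor replicate 3 or any 1 wine array was left out (adjusted p = 0.0613 to 0.146), and without flor replicate 1 its log2 change was −0.30 (adjusted p = 0.0333). Of 3 protease inhibitors, PAI3, which inhibits proteinase A, was 1.37-fold higher in flor (1.16 to 1.62, adjusted p = 0.0076), while its target PEP4 was lower. On slide 2 alone neither passed (adjusted p = 0.0787 for PAI3 and 0.0778 for PEP4). PBI2, an inhibitor of proteinase B, and TFS1, an inhibitor of carboxypeptidase Y, had log2 changes of 0.21 and −0.02 that did not pass. With the length trend removed the log2 change of PAI3 was 0.27 (adjusted p = 0.041).

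Of 8 measured partners of selective autophagy, 2 were higher and 3 lower (median −0.09). UTH1, a mitochondrial and cell wall protein linked to mitophagy, was 1.58-fold lower (1.15 to 2.16, adjusted p = 0.025), NVJ1, which ties the nucleus to the vacuole, 1.30-fold lower (adjusted p = 0.0058) and the mitochondrial fission gene DNM1 1.26-fold lower (adjusted p = 0.0094). UTH1 failed when any 1 wine array was left out (adjusted p = 0.0655 to 0.0777). Its log2 change was −0.66, and −0.40 without flor replicate 1 (adjusted p = 0.00354). The list of vacuolar amino acid transporters had 0 of 10 genes with a named probe and was not analysed here.

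**Figure D4:**
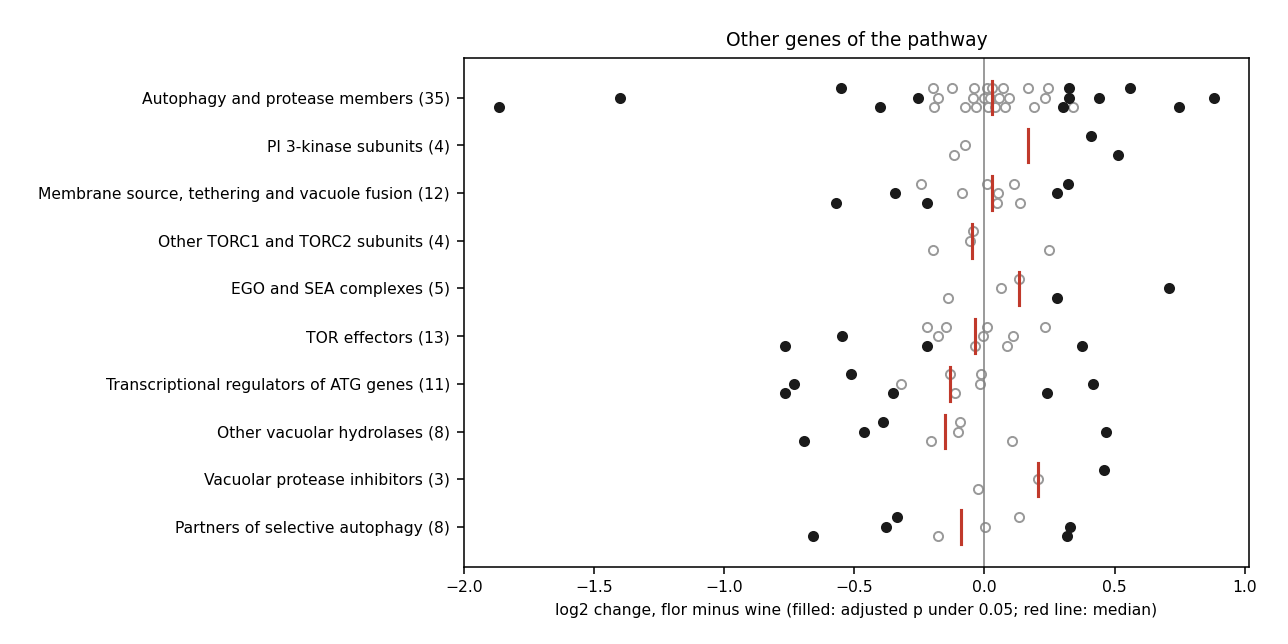
Each row is a gene list with its number of measured genes, the horizontal axis is the log2 change (flor minus wine), filled points passed at an adjusted p under 0.05 and red lines mark medians. Every list has its median between −0.15 and 0.21, and the widest spread is among the 35 members, from LAP4 at −1.86 to CPS1 at 0.88.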

How the data were processed

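Each culture's Cy3-labelled RNA was read on 1 Agilent array, per the labels' protocols. The authors deposited a log2 intensity for every probe on every array. That the scale is log2 and that the arrays had been brought to nearly 1 distribution was read from the values. R 2.14.2 and limma are named in the submitters' processing notes. How background was corrected, which normalization and filters were used and what sequence each probe has was not given in the sources used here, so whether a probe binds both strains equally was not tested, and no gene could be called absent.

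The platform names 1 gene for 4061 of 6227 probes, several for 0 and none for 2166. From the R64 gene list, 125 symbols were updated. Kept as annotated were 4 that are synonyms of a gene with its own probe and 4 ambiguous ones. FDH2 had 2 probes, which were averaged, giving 6226 features. Coding lengths came from that table.

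A mean for each strain was fitted with lmFit and eBayes over all 6 arrays (limma 3.58.1, R 4.3.3), two-sided, with Benjamini-Hochberg adjustment over 6226 features and a threshold of 0.05. In a title, replicate 2 of each strain is called technical replicate 2, with no second array of it analysed here, so p-values measure the spread between these arrays, which may be partly technical. The fit was tested on simulated data. Alternatives were quantile normalization, median centring, omission of the dimmest 25% of features, robust eBayes with an intensity trend, slide as a block, each slide alone, replicate number as a block, omission of each array, removal of a loess on log2 coding length (span 0.5), the brightest probe of a gene, and an adjusted p under 0.01. The length trend was removed from each array's deviations from the mean of both strains, so any strain difference that follows length went with it.

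Array values are printed for the 12 members past the threshold and for ATG1, ATG8, PRB1 and TOR1, as well as for ATG19, which was added after its values were seen. Of each other list, up to 3 genes with the largest changes past the threshold are named, and the further genes named there (VPS34, VPS15, IML1, SCH9, UME6, PBI2 and TFS1) were added for their place in the pathway after their values were seen. The members and lists were chosen with earlier results of these data known. Planned searches of promoters for motifs were not made because no promoter sequences were used.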

Additional observations from a re-analysis of the deposited data

How the results depend on the processing

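All 12 calls among the members kept their sign in every alternative. At an adjusted p under 0.05, LAP4, ATG41, CPS1 and ATG17 passed in all 15 settings with a test, and AMS1, PEP4, ATG14 and NPR3 in all that tested them but slide 2 alone. Members higher in flor numbered 7 as reported, 2 on slide 2 alone, 2 at an adjusted p under 0.01 and 4 to 10 with single arrays left out (4 without wine replicate 1, 10 without flor replicate 1). Members lower numbered 5, then 2, 3 and 4 to 6. Over all features 1276 were higher and 1470 lower, against 701 and 723 on slide 2 alone, 841 and 920 at an adjusted p under 0.01, and 966 to 1502 and 1074 to 1777 with single arrays left out. The median log2 change of members was −0.02 on slide 2, 0.09 on slide 1 and −0.00 to 0.11 with single arrays left out, and 15 of the 23 members that did not pass changed sign in at least 1 setting, so neither the median nor those 15 have a settled direction. Slide 2 alone and the omissions use fewer arrays. The dimmest 25% of features included ATG12, ATG14 and NPR3, which left 5 higher and 4 lower of 28 tested, with no other call lost. Quantile normalization added ATG19.

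With the replicate number as a block, the members' counts were 7 higher and 5 lower, with the same 12 genes, and over all features 1393 and 1580. Deviations of same-numbered arrays correlated at 0.37, 0.23 and 0.05 across features, and those of differently numbered arrays at −0.33 to 0.19. Deviations were taken from each strain's own mean, so a positive value for 1 pair forces a negative value for another. The pair at 0.19 was flor replicate 3 and wine replicate 2, which share slide 1. The pair at −0.33 was flor replicate 2 and wine replicate 1, which share slide 2. Whether same-numbered samples share more than a number was not tested. No detection calls were used, so intensities near the bottom of the range limit what can be read from ATG16.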
